A study of Rattus norvegicus with 12 samples.

Results

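The genes described here are 8 components of the renin-angiotensin system, measured in the congestive and the control kidney of the rat: angiotensinogen (Agt), angiotensin-converting enzyme (Ace), the angiotensin receptors Agtr1a, Agtr1b and Agtr2, the Mas receptor (Mas1), aminopeptidase A (Enpep) and the prorenin receptor (Atp6ap2). They were chosen by gene symbol, with earlier results of these data known. A row carrying the symbol was found for 7 of the 8, among 18166 genes with a named row, and each of these 7 had 1 row. Enpep is not analysed here.

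Congestive kidneys were the left kidneys of male rats of the Sprague-Dawley strain, aged 7 to 9 weeks, whose inferior vena cava had been tied off completely between the renal veins. Control kidneys were the right kidneys of operated rats, so that they too came from animals with a ligated vein. No sham-operated rats are among these arrays. Congestion cannot be told apart here from kidney side or from a response of the right kidney to the surgery. Tissue was taken on day 3 after surgery and divided into cortex (Cx) and outer medulla (OM). Total RNA of 3 congestive and 3 control kidneys per region was hybridised to 12 GeneChip Rat Gene 2.0 ST arrays, which read many short probes along each transcript.

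Angiotensin I is released from angiotensinogen, and Ace shortens this peptide to angiotensin II, which constricts vessels and retains sodium through the AT1 receptor. Rodents carry a pair of AT1 receptor genes, Agtr1a and Agtr1b, while Agtr2 and Mas1 encode receptors whose actions largely oppose those of AT1. In the rat kidney the brush border of the straight proximal tubule, which runs through the outer medulla, is known to be rich in Ace, and AT1 receptors are found on vascular smooth muscle, mesangial, interstitial and tubular cells.

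Array medians lay between 6.02 and 6.09 on the log2 scale, and arrays of the same group correlated with r of 0.988 to 0.991. Markers of the regions were placed as the labels state. In control cortex 4 of 4 measured podocyte markers (6 listed) were higher than in control outer medulla. There 7 of 8 markers of the thick ascending limb were lower than in control outer medulla. Of all genes 10.1% were called higher and 11.4% lower in this comparison. The tissue is a mixture of cells, in which fewer cells of a type and less RNA per cell cannot be told apart.

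The 3 genes whose changes carry most of what follows, Agtr1a, Agtr1b and Ace, are shown by the 250 bases before the start site in the RefSeq promoter table (GRCr8 build), on the strand of the gene. A promoter was found there for 7 of the 8 genes, and Agt had none. Capitals mark matches on either strand to 4 motifs: the TATA box TATAAA, the GC box GGGCGG, the CCAAT box and the AP-1 element TGANTCA. Overlapping matches are joined in a run of capitals.
Agtr1a, chr17:34435433-34435682, minus strand: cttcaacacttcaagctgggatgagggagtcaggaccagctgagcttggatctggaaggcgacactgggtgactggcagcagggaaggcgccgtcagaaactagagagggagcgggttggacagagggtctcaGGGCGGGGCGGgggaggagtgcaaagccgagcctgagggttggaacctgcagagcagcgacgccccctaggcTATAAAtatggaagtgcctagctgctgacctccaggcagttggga
Agtr1b, chr2:104849263-104849512, minus strand: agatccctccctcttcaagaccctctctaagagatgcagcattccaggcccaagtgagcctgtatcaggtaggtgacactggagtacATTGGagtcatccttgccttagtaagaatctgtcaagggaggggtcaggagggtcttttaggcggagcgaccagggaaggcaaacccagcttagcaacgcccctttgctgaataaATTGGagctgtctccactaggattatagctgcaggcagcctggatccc
Ace, chr10:91409879-91410128, plus strand: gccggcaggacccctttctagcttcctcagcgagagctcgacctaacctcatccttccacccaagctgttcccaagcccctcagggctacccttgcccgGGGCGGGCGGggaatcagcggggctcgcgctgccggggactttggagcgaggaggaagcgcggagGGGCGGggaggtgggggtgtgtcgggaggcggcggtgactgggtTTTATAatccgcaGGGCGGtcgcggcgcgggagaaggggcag

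The promoters of the paired AT1 receptor genes shared none of these matches. That of Agtr1a held a TATA box that begins at -45 and GC boxes that begin at -117 and -112, counted from the start site, and the RefSeq span of this gene begins within the printed window. The promoter of Agtr1b held CCAAT boxes read on the opposite strand at -163 and -48. In that of Ace, GC boxes began at -151, -147, -86 and -29, and a TATA box was read on the opposite strand at -42. Over 33469 promoters of the same length, 12.9% held the TATA box, 30.5% the GC box, 34.0% the CCAAT box and 6.3% the AP-1 element, which matched in none of the 3. These matches describe the letters only.

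Congestive kidneys differed from control kidneys in 5 of the 7 genes in the outer medulla and in 1 in the cortex. A gene was called at an adjusted p below 0.05 in limma, adjusted over all genes. Both AT1 receptor genes rose in the outer medulla, Agtr1a 2.24-fold and Agtr1b 1.86-fold, while Agt fell by 0.78 on the log2 scale, Ace fell by 0.45 and Atp6ap2 fell by 0.39 there. In the cortex Ace alone passed the test, and it was 1.53-fold higher. Across all genes 23.2% were called in the outer medulla (11.8% higher and 11.3% lower) and 11.6% in the cortex (7.98% higher and 3.64% lower), so that the cortical count of 1 in 7 was near the share of all genes. The median change of the 7 was -0.15 in the outer medulla and 0.04 in the cortex, beside -0.01 and -0.02 over all genes. No member was called lower in the cortex, where 2 had lower values at an unadjusted p below 0.05 in limma, and the unmoderated test of the study's methods called 0 in either direction after adjustment.

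**Figure D1:**
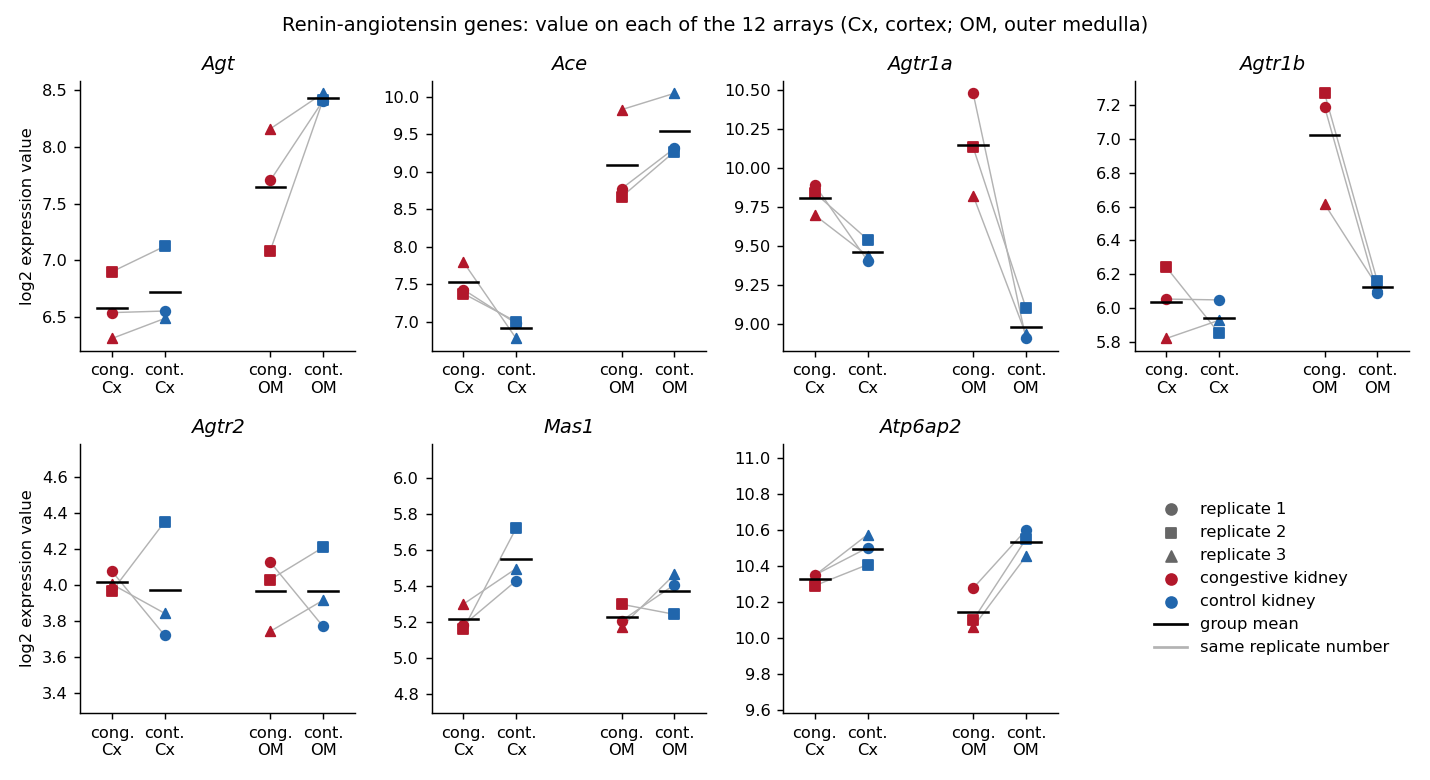
Expression of 7 renin-angiotensin genes on each of 12 arrays, as log2 values, with congestive kidneys (red) left of control kidneys (blue) in cortex (Cx) and outer medulla (OM). Symbols mark the replicate numbers, grey lines join equal numbers, bars are group means (n = 3), and each panel has its own axis. In the outer medulla all congestive arrays lie above the control arrays for Agtr1a and Agtr1b, and below them for Agt and Atp6ap2.

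Angiotensinogen is the precursor of all angiotensin peptides. Outer medullary Agt had log2 values of 7.70, 7.09 and 8.16 in congestive kidneys, against 8.41, 8.41 and 8.47 in control kidneys. All congestive values lay below all control values, and the congestive kidneys were spread far more widely (SD 0.54) than the control kidneys (SD 0.04, n = 3 each). Pair by pair the gene fell by 0.70, 1.33 and 0.31, and the fitted change was -0.78 (SE 0.17, 95% interval -1.16 to -0.40, adjusted p = 0.0115), 1.72-fold lower in the congestive kidneys. The fall was no longer called without replicate 1 (-0.82, adjusted p = 0.0786) or without replicate 2 (-0.51, adjusted p = 0.0535), and was -1.01 (adjusted p = 0.00890) without replicate 3.

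In the cortex Agt had 6.54, 6.90 and 6.32 in congestive kidneys, against 6.56, 7.13 and 6.49 in control kidneys. These ranges overlapped, although each congestive kidney had the lower value of its pair. The change of -0.14 (SE 0.17, 95% interval -0.52 to 0.24) did not pass the test (adjusted p = 0.635). Nor was the difference between the changes of the regions, -0.64 for outer medulla minus cortex, past the threshold (adjusted p = 0.246).

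In the outer medulla the mean of markers of the proximal tubule fell in each pair, as Agt did. The mean log2 level of 12 such markers was 9.91, 9.26 and 10.37 in congestive outer medulla, against 10.46, 10.50 and 10.40 in control outer medulla, and by pair it changed by -0.55, -1.24 and -0.03. The pair with the largest fall of Agt there thus also had the largest fall of these markers, and the pair with the smallest fall of Agt the smallest. In the cortical pairs Agt changed by -0.01, -0.22 and -0.18, and the mean of the markers by -0.18, -0.29 and -0.04. There the largest falls lay in the same pair, but the smallest falls lay in different pairs. In the outer medulla 3 of the 12 markers were called lower (Slc22a6, Slc22a7 and Aqp1), 0 higher, and the median of the 12 was -0.55. Of all genes 23.2% were called there, 11.3% lower and 11.8% higher, so that 3 of 12 was near the share called either way. The 12 markers gave 0 calls in cortex in limma, where 11.6% of all genes were called. The part of the proximal tubule in the changes of Agt was not tested.

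Ace moved in opposite directions in the regions. In the cortex it had 7.43, 7.37 and 7.80 in congestive kidneys, against 6.98, 7.00 and 6.78 in control kidneys, with no overlap. Outer medullary Ace had 8.78, 8.67 and 9.83 in congestive kidneys, against 9.32, 9.27 and 10.05 in control kidneys. There the ranges overlapped, since both kidneys of replicate 3 were higher than the others, but each congestive kidney lay below its own control.

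The rise of Ace in the cortex was 0.62 (SE 0.14, 95% interval 0.30 to 0.93, adjusted p = 0.0248), made up of 0.45, 0.37 and 1.02 in the pairs. The fall in the outer medulla was -0.45 (SE 0.14, 95% interval -0.77 to -0.14, adjusted p = 0.0457), from -0.54, -0.60 and -0.22. The changes of the regions differed by -1.07 for outer medulla minus cortex ( SE 0.19, 95% interval -1.51 to -0.63, adjusted p = 0.0423). Ace was the 1 member for which this difference was called, against 1.62% of all genes. Genes called in these opposite directions, up in cortex and down in outer medulla, numbered 22, or 0.121%.

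These calls for Ace were close to the threshold. Without replicate 1, 2 or 3 the cortical rise was 0.70, 0.74 and 0.41 (adjusted p = 0.0899, 0.0697 and 0.0723), the outer medullary fall was not called without replicate 1 (-0.41, adjusted p = 0.220) or replicate 2 (-0.38, adjusted p = 0.209), nor after quantile normalization (-0.43, adjusted p = 0.0594), and the difference had adjusted p of 0.267, 0.181 and 0.0608. Without the pairing the cortical change had an adjusted p of 0.193 and the outer medullary change 0.308. The direction was kept in these fits, but only quantile normalization could have turned it. Leaving out the pairing does not alter the size of a change. All 3 pairs rose in the cortex and all 3 fell in the outer medulla, so no fit without a replicate could reverse the sign. Ace is also made by endothelium. The mean of 7 measured endothelial markers (10 listed) changed by 0.12, 0.18 and 0.10 in the cortical pairs, with 2 of the 7 called higher, against 7.98% of all genes. That of the proximal tubule markers changed by -0.18, -0.29 and -0.04. By pair, the outer medullary mean of the proximal tubule markers changed by -0.55, -1.24 and -0.03, and the pair with the largest fall of Ace there also had the largest fall of these markers. Their part in the changes of Ace was not tested.

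The AT1 receptor gene Agtr1a encodes the main AT1 receptor of the rodent kidney. Its outer medullary log2 values were 10.48, 10.14 and 9.83 in congestive kidneys, against 8.91, 9.11 and 8.94 in control kidneys. Every congestive value was higher than every control value, and the lowest congestive kidney was replicate 3. The change was 1.16 (SE 0.13, 95% interval 0.87 to 1.46, adjusted p = 0.000594), with 1.57, 1.03 and 0.89 in the pairs. It passed the threshold without each replicate in turn, with changes between 0.96 and 1.30.

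In the cortex Agtr1a had 9.89, 9.84 and 9.70 in congestive kidneys, against 9.41, 9.54 and 9.44 in control kidneys. These values did not overlap either, which in the cortex held for 34.0% of all genes, and in the outer medulla for 36.0%. The cortical difference of 0.35 (SE 0.13, 95% interval 0.05 to 0.64) was not past the adjusted threshold (adjusted p = 0.124). The rise in the outer medulla exceeded the cortical value by 0.82 (SE 0.18, 95% interval 0.40 to 1.23), and this difference was not called (adjusted p = 0.0766).

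Agtr1b, the paralogue of Agtr1a, was higher in congestive kidneys in the outer medulla. Its log2 values there were 7.19, 7.27 and 6.62 in congestive kidneys, against 6.09, 6.16 and 6.13 in control kidneys. The control kidneys lay within a narrow band (SD 0.04) and the congestive kidneys all lay above it, with replicate 3 nearest to it. The change was 0.90 (SE 0.14, 95% interval 0.56 to 1.23, adjusted p = 0.00337), and it was 0.80 without replicate 1, where it missed the threshold (adjusted p = 0.0522). The pairs gave 1.10, 1.11 and 0.48.

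Cortical Agtr1b had 6.06, 6.24 and 5.82 in congestive kidneys, against 6.05, 5.85 and 5.93 in control kidneys. These arrays overlapped and the pairs disagreed in direction, with 2 higher and 1 lower, so that the change of 0.10 (SE 0.14, adjusted p = 0.714) was within the spread between kidneys. The excess of the outer medullary change over the cortical change, 0.80, did not pass the test (adjusted p = 0.108). The sequences of the paired receptor genes are alike, and whether probes of either row also bind the other transcript was not tested.

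Markers of smooth muscle, pericytes and mesangium and of macrophages rose in the same kidneys as the AT1 receptor genes. Of 10 listed markers of smooth muscle, pericytes and mesangium, 8 were measured. Of these 6 were called higher in the outer medulla and 4 in the cortex, and 0 lower in either. Of all genes 11.8% were called higher in the outer medulla and 7.98% in the cortex. Tagln, Pdgfra and Pdgfrb changed most, by 1.66 to 2.33 in the outer medulla and 1.16 to 1.99 in the cortex. Cspg4 and Notch3 were called in neither region. Their mean level ranged from 8.70 to 9.01 in congestive outer medulla and 7.76 to 7.92 in control outer medulla, and the pair changes were 1.13, 1.09 and 0.87. Of 10 macrophage and monocyte markers, 10 were called higher in the outer medulla and 8 in the cortex, with pair changes of their mean in the outer medulla of 1.64, 1.82 and 1.35. In the cortex, where Agtr1b was not called, the means of these lists changed by 0.65 to 0.80 and by 0.95 to 1.17 in the pairs. The part of these cells in the levels of the receptor genes was not tested.

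**Figure D2:**
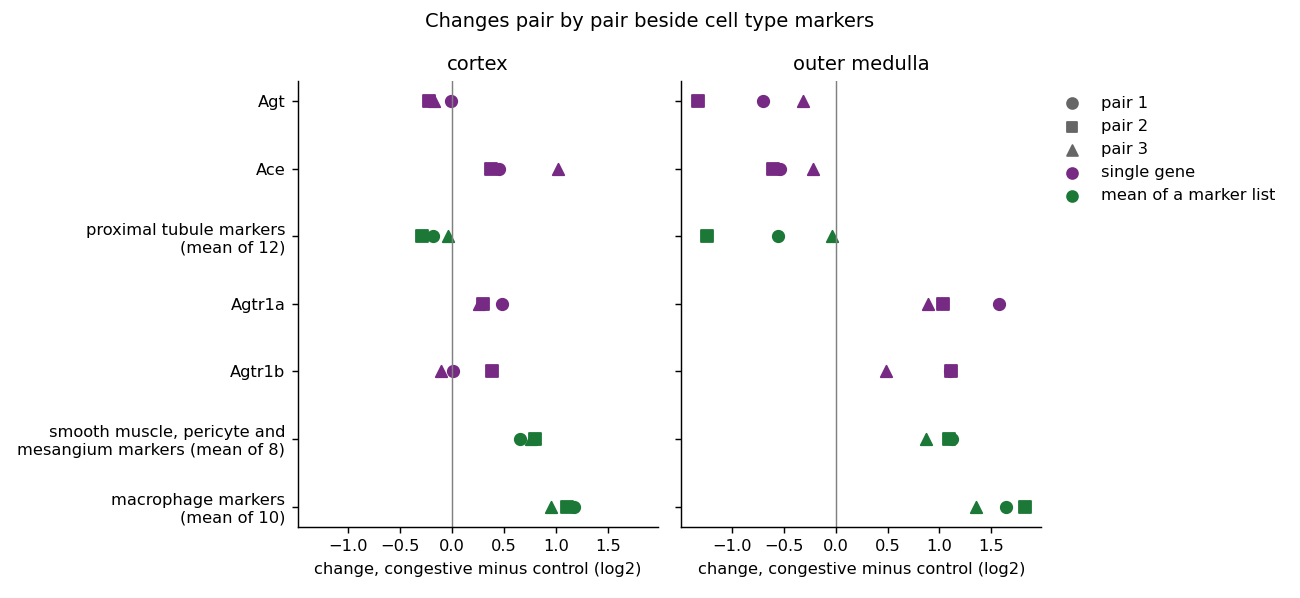
Change in each pair of kidneys, congestive minus control in log2 units, for Agt, Ace, Agtr1a and Agtr1b (purple) and for the mean of 3 cell type marker lists (green), in cortex (left panel) and outer medulla (right panel). In the outer medulla pair 2 has the lowest value both for Agt (-1.33) and for the proximal tubule markers (-1.24), and pair 3 the highest. In the cortex pair 1 is highest for Agt and pair 3 for these markers.

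Neither receptor that opposes AT1 was called in either region in the paired fit. Mas1, the receptor of a shorter angiotensin peptide, had 5.18, 5.16 and 5.30 in congestive cortex, against 5.43, 5.72 and 5.50 in control cortex. All congestive values were below the control values, and the change of -0.34 (SE 0.10, 95% interval -0.57 to -0.10) did not pass the test with the pairing (adjusted p = 0.0728) but did without it (adjusted p = 0.0376). Outer medullary Mas1 had 5.21, 5.30 and 5.18 in congestive kidneys, against 5.41, 5.24 and 5.47 in control kidneys, and the change of -0.15 was not called (adjusted p = 0.380).

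Agtr2, which encodes the AT2 receptor and is expressed mainly in the fetal kidney, was read by a dim row at or above only 16.0% of all rows. It ranged from 3.97 to 4.08 in congestive cortex and 3.72 to 4.35 in control cortex, and from 3.74 to 4.13 in congestive outer medulla and 3.77 to 4.21 in control outer medulla. All groups overlapped. The change was 0.04 in the cortex (95% interval -0.32 to 0.41, adjusted p = 0.888) and 0.00 in the outer medulla (95% interval -0.36 to 0.37, adjusted p = 0.994). Detection calls were not used here, and whether this row lies above background is unknown.

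Atp6ap2 encodes the prorenin receptor, which is also an accessory subunit of the vacuolar proton pump. Its outer medullary log2 values were 10.28, 10.10 and 10.06 in congestive kidneys, against 10.60, 10.55 and 10.45 in control kidneys. The groups did not overlap, and the 3 pairs were close to each other at -0.32, -0.45 and -0.39. The change was -0.39 (SE 0.07, 95% interval -0.55 to -0.23, adjusted p = 0.00596), which is 1.31-fold lower in the congestive kidneys. It was not called without replicate 1 (-0.42, adjusted p = 0.0523) or replicate 2 (-0.36, adjusted p = 0.0679).

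In the cortex Atp6ap2 had 10.35, 10.29 and 10.35 in congestive kidneys, against 10.50, 10.41 and 10.58 in control kidneys. These values did not overlap either, and the change of -0.17 (SE 0.07, 95% interval -0.33 to -0.00) was not called (adjusted p = 0.177). The difference between the regions, -0.22, was not past the threshold (adjusted p = 0.346). Markers of the collecting duct, whose intercalated cells use the vacuolar proton pump, were lower in the same kidneys, 7 of 8 in the outer medulla and 6 of 8 in the cortex. That list is not limited to intercalated cells. Of 8 markers of the thick ascending limb, 5 were lower in the outer medulla and 4 in the cortex, where 2 were higher. Of all genes 11.3% were called lower in the outer medulla and 3.64% in the cortex, where 7.98% were called higher. The part of these cells in the levels of Atp6ap2 was not tested.

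**Figure D3:**
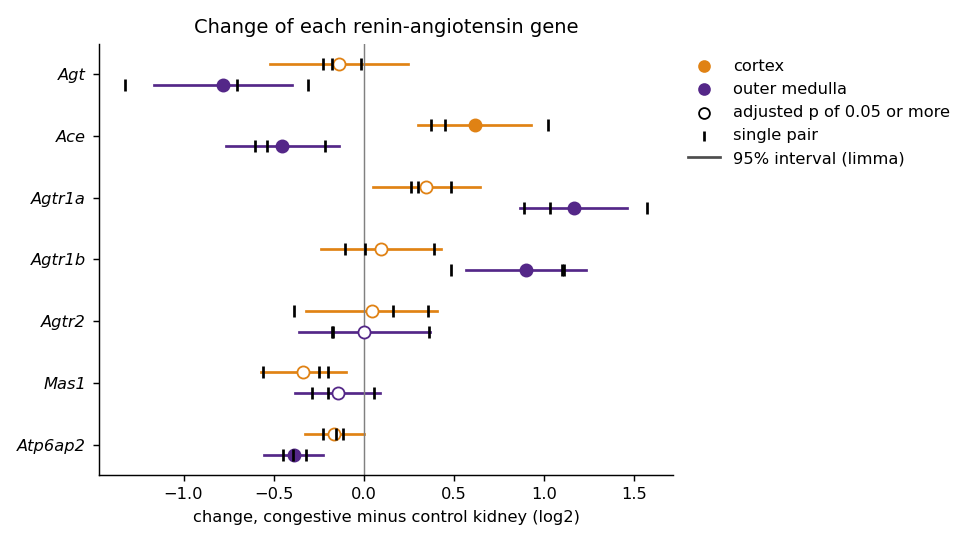
Change of each renin-angiotensin gene, congestive minus control kidney in log2 units, in cortex (orange) and outer medulla (purple). Circles are limma estimates, filled where the adjusted p was below 0.05, lines are 95% intervals and ticks are the 3 pairs. Ace is the only gene with a filled circle on each side of 0, at 0.62 in cortex and -0.45 in outer medulla.

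The place of each gene in the kidney was read from the difference between the regions, cortex minus outer medulla. In congestive kidneys 3 of the 7 genes were lower in the cortex and 0 higher, while in control kidneys 2 were lower and 1 higher. Over all genes 18.7% were called in congestive kidneys (9.73% higher and 8.96% lower) and 21.5% in control kidneys (10.1% higher and 11.4% lower). At an unadjusted p below 0.05 in limma, 4 members were lower and 1 higher in congestive cortex than in congestive outer medulla.

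Ace had the largest difference of the 7 genes between the regions. The difference was -1.56 in congestive kidneys (95% interval -2.18 to -0.94, adjusted p = 0.00241) and -2.63 in control kidneys (95% interval -3.25 to -2.01, adjusted p = 3.62e-05), where it was 6.18-fold lower in the cortex. Agt was lower in cortex as well, with a difference of -1.06 in congestive kidneys (adjusted p = 0.00980) and -1.70 in control kidneys (adjusted p = 0.000323). In control kidneys both held without each replicate in turn. In congestive kidneys Agt was not called without replicate 1 (-1.01, adjusted p = 0.186) or replicate 3 (-0.67, adjusted p = 0.117), and Ace was not called without replicate 1 (-1.66, adjusted p = 0.0620).

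For the AT1 receptor genes the calls depended on the condition and, for Agtr1a, on the fit. Agtr1a differed between cortex and outer medulla by -0.34 in congestive kidneys (adjusted p = 0.119, and 0.0390 with the replicate number as a block across the regions) and by 0.48 in control kidneys (adjusted p = 0.0245), higher in control cortex. The control value was not called when replicate 1, 2 or 3 was left out (adjusted p = 0.0729, 0.143 and 0.0505). For Agtr1b the difference was -0.98 in congestive kidneys (adjusted p = 0.000972, and 0.0662 without replicate 1) and -0.18 in control kidneys (adjusted p = 0.473). The change of these differences between conditions is the difference between the changes of the regions given above, which was not called for either gene. Mas1, Agtr2 and Atp6ap2 were not called between the regions in either condition, with differences from -0.01 to 0.18 in congestive kidneys and from -0.04 to 0.18 in control kidneys.

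**Figure D4:**
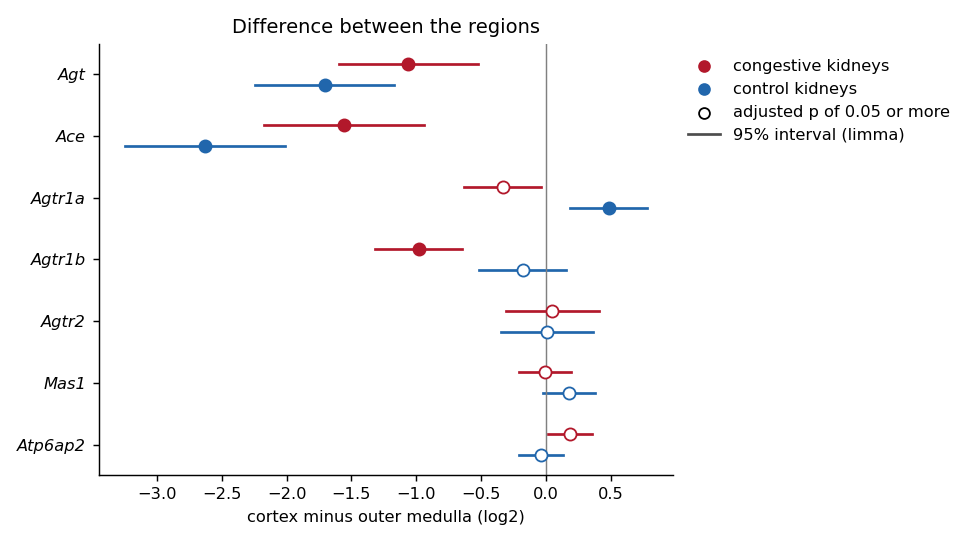
Difference between the regions for each renin-angiotensin gene, cortex minus outer medulla in log2 units, in congestive kidneys (red) and control kidneys (blue). Circles are limma estimates, filled where the adjusted p was below 0.05, and lines are 95% intervals. Ace lies farthest to the left in both conditions, at -1.56 in congestive and -2.63 in control kidneys.

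Ordered by their means, the 4 groups ran differently for each gene. For Ace they ran upward through control cortex (6.92 ± 0.12), congestive cortex (7.53 ± 0.23), congestive outer medulla (9.09 ± 0.64) and control outer medulla (9.54 ± 0.44, SD, n = 3 each), and only the last neighbours overlapped. For Agt the order was congestive cortex (6.59 ± 0.30), control cortex (6.72 ± 0.35), congestive outer medulla (7.65 ± 0.54) and control outer medulla (8.43 ± 0.04), and only the last neighbours did not overlap. For Agtr1a control outer medulla was lowest (8.98 ± 0.11), followed by control cortex (9.46 ± 0.07), congestive cortex (9.81 ± 0.10) and congestive outer medulla (10.15 ± 0.33), and the ranges of the last neighbours overlapped. For Agtr1b only congestive outer medulla (7.02 ± 0.36) stood clear of the other 3 groups, whose means lay between 5.94 and 6.13.

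Across the 12 arrays Agt and Ace followed each other (Pearson r = 0.889), and Agtr1a and Agtr1b less closely (r = 0.666). Atp6ap2 ran against Agtr1a (r = -0.749) and Agtr1b (r = -0.677). The genes whose pattern was most like that of Agt were Slc6a18 (r = 0.991), a transporter of neutral amino acids in the proximal tubule, Gss (0.985), the glutathione synthetase, and Gc (0.983), the vitamin D binding protein. Those most like Ace were Sec16b (0.980), Oxr1 (0.972) and Acox2 (0.971), the last an oxidase of peroxisomes. Closest to Agtr1a were Gpr183 (0.987), an oxysterol receptor of immune cells, Eps15 (0.968) and Pltp (0.968), and closest to Agtr1b were Rarb (0.973), a retinoic acid receptor, Cdkn1c (0.969) and Pdlim5 (0.964). Those of Atp6ap2 were Rimoc1 (0.963), Ndufb9 (0.956) and Fabp3 (0.954). The 12 arrays fall into 4 groups by region and condition, which these correlations share, and they are given as a description.

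Of 17 further genes of the pathway, mostly peptidases that form or degrade angiotensins, 14 were measured. In the outer medulla 3 were higher and 2 lower, and in the cortex 2 were higher and 0 lower, where 1 was lower at an unadjusted p below 0.05 in limma. Of all genes 23.2% were called in the outer medulla and 11.6% in the cortex, so that the cortical 2 of 14 were near that share. The median change of the 14 was -0.01 in the outer medulla and 0.04 in the cortex. Ctsd (cathepsin D), a lysosomal protease that can release angiotensin I from angiotensinogen, rose by 0.96 in the outer medulla (SE 0.08, adjusted p = 0.000122) and by 0.73 in the cortex (SE 0.08, adjusted p = 0.00108), in all 3 pairs of each region. Prcp, a carboxypeptidase that degrades angiotensin II, rose by 0.84 in the outer medulla (SE 0.08, adjusted p = 0.000291) and by 0.45 in the cortex (SE 0.08, adjusted p = 0.0111), and the cortical value was not called without replicate 1, 2 or 3 (adjusted p = 0.0938, 0.0633 and 0.0725). Cathepsin D is abundant in macrophages, whose markers rose in both regions as given above, and their part in its rise was not tested.

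The aminopeptidases did not move together. Lnpep, which binds angiotensin IV, was 0.29 higher in the outer medulla (adjusted p = 0.0220) and 0.26 higher in the cortex without passing the test (adjusted p = 0.0602), although it passed without the pairing (0.0345), without dim genes (0.0412) and with trended, robust moderation (0.0117). Anpep, a brush border enzyme that shortens angiotensin III, fell by 0.42 in the outer medulla (adjusted p = 0.0344) and differed by 0.29 in the cortex (adjusted p = 0.147). Rnpep fell by 0.31 in the outer medulla (adjusted p = 0.0161) and differed by -0.02 in the cortex (adjusted p = 0.903). Left out in turn, replicates 1, 2 and 3 each ended the outer medullary call of Lnpep (adjusted p = 0.138, 0.163 and 0.0723) and that of Rnpep (adjusted p = 0.0858, 0.122 and 0.0948), and Anpep was not called without replicate 1 (-0.49, adjusted p = 0.111) or replicate 2 (-0.24, adjusted p = 0.193).

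**Figure D5:**
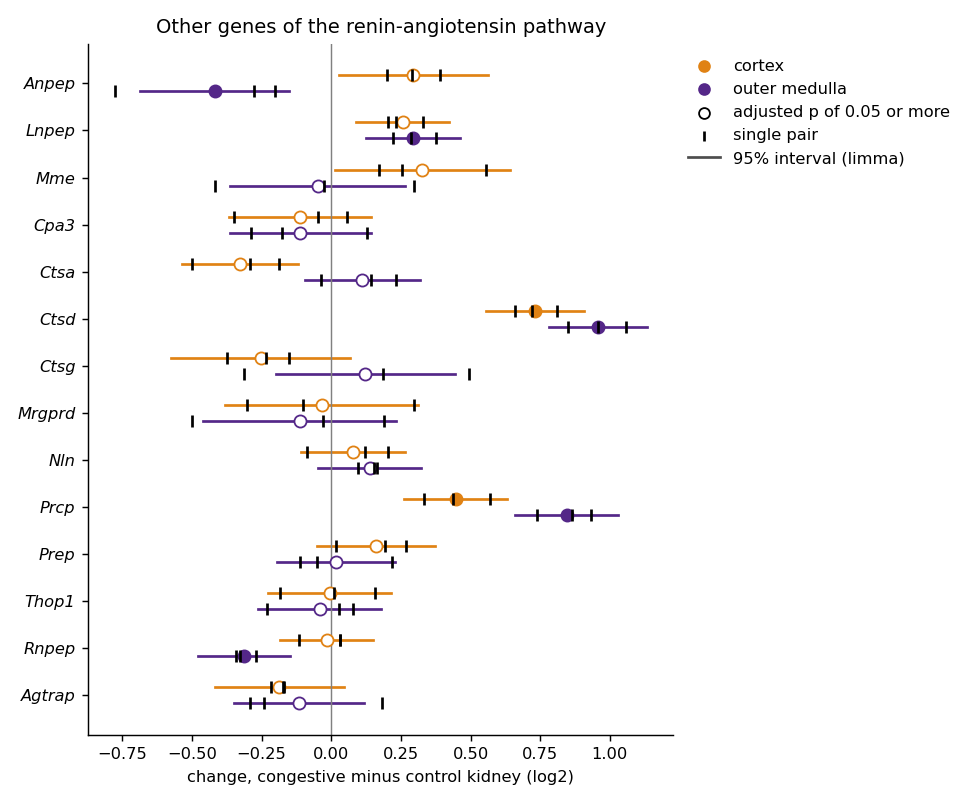
Change of 14 further genes of the renin-angiotensin pathway, congestive minus control kidney in log2 units, in cortex (orange) and outer medulla (purple). Circles are limma estimates, filled where the adjusted p was below 0.05, lines are 95% intervals and ticks are the 3 pairs. Ctsd and Prcp are filled in both regions, to the right of 0.

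Downstream of the AT1 receptor, 22 signalling genes were measured. In the outer medulla 7 were higher and 1 lower, and in the cortex 6 were higher and 2 lower, with a median of 0.08 in the outer medulla and 0.12 in the cortex. The shares over all genes were 11.8% higher and 11.3% lower in the outer medulla, and 7.98% higher and 3.64% lower in the cortex. The largest called changes in the outer medulla were those of Nox4, an NADPH oxidase (-0.85, SE 0.26, adjusted p = 0.0489), of Arrb2, a beta-arrestin that uncouples and internalises receptors (0.80, SE 0.08, adjusted p = 0.000473), and of Grk5, a kinase of activated receptors (0.77, SE 0.08, adjusted p = 0.000586). In the cortex they were those of Arrb2 (0.71, SE 0.08, adjusted p = 0.00182), Grk5 (0.61, SE 0.08, adjusted p = 0.00355) and Rgs2, a brake on Gq signalling (0.57, SE 0.12, adjusted p = 0.0190).

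In the outer medulla the pairs of Nox4 changed by -0.85, -1.70 and -0.001, and its groups overlapped. Nox4 was not called there without replicate 1 (-0.85, adjusted p = 0.204) or replicate 2 (-0.42, adjusted p = 0.244). Rgs2 in the cortex was not called without replicate 2 (0.38, adjusted p = 0.108) or replicate 3 (0.62, adjusted p = 0.0839). Both genes called lower in the cortex, Gna12 (-0.32, adjusted p = 0.0266) and Cyba (-0.33, adjusted p = 0.0268), were named after their values were seen, and Cyba was called higher in the outer medulla. The cortical call of Cyba was lost without replicate 1, 2 or 3 (adjusted p = 0.0831, 0.210 and 0.159). These 22 genes act downstream of many receptors besides AT1, and receptor activity was not measured.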

How the data were processed

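RNA of congestive and control kidneys was measured on 12 arrays (3 per group in cortex and outer medulla). The authors summarised and normalized the arrays with Affymetrix Expression Console and deposited log2 values, 1 per transcript cluster. No source used here gives the version, summarization, log base or genome build. Log2 was taken because the highest value, 13.5, would exceed a scanner's range on another base. Of 36685 rows, 18511 carried 1 gene symbol in the platform annotation, 575 several and 17599 none. The brightest row per symbol was kept, which left 18166 genes, of which 18059 matched a RefSeq gene ID. Replicate numbers came from sample titles. Both cortical arrays of replicate 3 carry number 2 in the source name.

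Changes were fitted with limma 3.58.1 in R 4.3.3 over all 12 arrays with 6 pair blocks (4 residual and 3.96 prior degrees of freedom), and differences between regions on 4 group means without blocks. P-values were adjusted over all 18166 genes (Benjamini-Hochberg), dim genes were kept, and the threshold was 0.05. Pairing follows the study's comparison of the kidneys within rats. Deviations of same-numbered arrays from their group means correlated across genes: r was 0.00, 0.14 and 0.34 for the cortical pairs, and for the outer medullary pairs 0.17, 0.25 and 0.21. The first cortical pair thus did not correlate. Arrays of different numbers gave -0.25 to 0.09 across cortex and -0.21 to -0.02 across outer medulla. Deviations from a group mean sum to 0, which pushes these values down where equal numbers correlate, so they are not a separate check of the pairing. The highest of them in cortex lay above the first cortical pair. Rats were not tracked across regions in the model. On simulated arrays the fits were checked against known changes. Alternatives left out the pairing, dim genes or each replicate, rescaled the arrays, changed the moderation, or used an unpaired t-test without moderation. The study's methods name a t-test for group comparisons but not how the arrays were tested. The genes named are all members, further pathway genes called in a region, the 3 largest called changes of AT1 signalling per region, and the 3 genes most correlated with each called member. Gna12 and Cyba were added after their values were seen. Members and lists were chosen with earlier results of these data known. Depth has no meaning for arrays, and their number limits the precision. Figures were drawn with matplotlib 3.10.9.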

Additional observations from a re-analysis of the deposited data

Results flagged for a closer look

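The change of Ace differed between the regions in a test of the difference itself, by -1.07 for outer medulla minus cortex (adjusted p = 0.0423). All 3 pairs were lower in the outer medulla and all 3 higher in the cortex. The call for Ace was lost without the replicate block, after quantile normalization and without replicate 1, 2 or 3, with adjusted p up to 0.275. Cyba, the membrane subunit shared by several NADPH oxidases, differed the other way by 0.92 (adjusted p = 0.0111), being higher in all 3 pairs of the outer medulla and lower in all 3 of the cortex. The call for Cyba was lost without replicate 1, 2 or 3, with adjusted p up to 0.146. Anpep moved like Ace, with all pairs lower in the outer medulla and all higher in the cortex, and its difference of -0.71 did not pass the test (adjusted p = 0.0825).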

How the results depend on the processing

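The number of members called was 5 in the outer medulla, 1 in the cortex and 1 for the difference between the changes of the regions. Without the replicate block these were 4, 1 and 0, and the 1 in the cortex was then Mas1 (adjusted p = 0.0376) in place of Ace (0.193). The unpaired t-test called 0 in both regions after adjustment (at an unadjusted p below 0.05, 3 in the outer medulla and 4 in the cortex). With each region fitted on its own the cortex gave 0. For the difference, quantile normalization gave 0, and the trend and robust options of eBayes gave 3, adding Agtr1a (adjusted p = 0.0232) and Agtr1b (0.0438). With 1 replicate left out, 1 to 5 members were called in the outer medulla, 0 in every such fit in the cortex and for the difference (1 to 3 and 2 to 4 at an unadjusted p below 0.05), and 0 to 3 between the regions in congestive kidneys. Of all genes, the unpaired t-test called 1040 in the outer medulla and 183 in the cortex, against 4207 and 2110 in the main fit. Leaving out a replicate gave 1957 to 3260 and 644 to 970. For the difference 294 genes were called, 149 without the block, 454 without dim genes, 785 with the trend and robust options and 0 to 43 without a replicate. Between the regions 888 to 2890 were called in congestive kidneys without a replicate, against 3394, and 1780 to 3068 in control kidneys, against 3905. The cause of these shifts was not tested.

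Signs turned for values near 0 that were not called. Median centring gave -0.03 for Agtr2 in outer medulla, and for the difference -0.002 for Lnpep and -0.012 for Rgs2. Quantile normalization gave -0.031 for Agtr2 between the regions in control kidneys and 0.016 for Mas1 in congestive kidneys. Leaving out a replicate gave ranges that cross 0. In cortex these were -0.051 to 0.196 for Agtr1b, -0.113 to 0.259 for Agtr2 and -0.042 to 0.033 for Rnpep, and in outer medulla -0.176 to 0.093 for Agtr2. For the difference they were -0.166 to 0.106 for Agtr2, -0.023 to 0.332 for Mas1, -0.032 to 0.153 for Arrb2, -0.11 to 0.23 for Rgs2 and -0.569 to 0.199 for Nox4. Between the regions they were -0.059 to 0.105 for Agtr2 and -0.081 to 0.05 for Mas1 in congestive kidneys, and -0.061 to 0.047 for Agtr2 and -0.12 to 0.012 for Atp6ap2 in control kidneys.

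Signal over background is unknown, which limits what the dim rows of Agtr2 and Mas1 can show. A fit without a replicate rests on 2 pairs per region.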
